A study of Schizosaccharomyces pombe with 2 samples.

Results

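The 62 rows of the deposited feature table that carry the type of small nucleolar RNA gene or small nuclear RNA gene were examined in small RNA libraries from the fission yeast Schizosaccharomyces pombe. All rows of these types were taken, whatever their values, and they are 62 of the 9139 features left once coding exons, which lie inside genes, are set aside. Of the 62, 57 are snoRNAs and 5 are the spliceosomal snRNAs U1, U2, U4, U5 and U6. Total RNA came from exponentially growing cells of a wild-type strain (WT, YAM2394) and of a strain deleted for exo2 (exo2Δ, YAM2397), and a gel was used to select RNAs of 10 to 40 nt, which were read from 1 end over 40 nt. Exo2, the counterpart of Xrn1 in other eukaryotes, is the cytoplasmic exoribonuclease that degrades RNA from its 5′ end, and the study asked whether long antisense RNAs stabilised by its loss are sources of small RNAs. Each strain had 1 library, so the values carry no replicate error and the strains were not tested against each other.

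Small nucleolar RNAs are nuclear guide RNAs that work in protein complexes. Box C/D snoRNAs direct 2′-O-methylation of their targets and box H/ACA snoRNAs direct pseudouridylation, most of it on ribosomal RNA, while a few, such as U3, U14 and U17, are needed to cleave the ribosomal RNA precursor. The snRNAs form the core of the spliceosome, in which U1 binds the 5′ splice site, U2 binds the branch point, and U4, U5 and U6 join as a tri-snRNP. Every member was longer than a read, the shortest being snoU24 with 47 nt, so that a read covered a stretch of an RNA and not the RNA as a whole. The table gives neither the lengths of the reads nor their positions within an RNA.

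The 4 snRNAs with more than 3 reads and the 5 members with the highest mean reads are shown as sequences because they carry most of the reads (snu6 and snu2 are in both sets). The sequences are those of the RefSeq annotation of assembly ASM294v3, matched by locus tag, and are written 5′ to 3′ as DNA. Capitals mark the stretch of U1 that pairs with the 5′ splice site, the stretch of U2 that pairs with the branch point, the loop of U5 that touches the exons, the exons of U6, whose gene is interrupted by an intron in fission yeast, and in snr79 and snoR69b the letters of the C box (TGATGA) and D box (CTGA) that a search found near the ends. sno20 has no capitals.
snu1: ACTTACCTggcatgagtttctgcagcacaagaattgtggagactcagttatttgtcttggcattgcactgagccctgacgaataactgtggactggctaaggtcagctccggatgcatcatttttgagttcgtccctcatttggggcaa
snu2: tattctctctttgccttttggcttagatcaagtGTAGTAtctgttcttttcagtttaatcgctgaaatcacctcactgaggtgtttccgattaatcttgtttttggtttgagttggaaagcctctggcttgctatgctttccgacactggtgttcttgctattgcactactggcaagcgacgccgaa
snu5: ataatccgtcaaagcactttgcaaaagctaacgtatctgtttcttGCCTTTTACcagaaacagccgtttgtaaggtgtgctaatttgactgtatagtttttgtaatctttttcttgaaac
snu6: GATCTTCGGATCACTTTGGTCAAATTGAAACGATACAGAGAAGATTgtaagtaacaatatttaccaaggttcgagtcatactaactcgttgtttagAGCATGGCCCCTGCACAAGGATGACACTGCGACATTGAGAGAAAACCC
snr79: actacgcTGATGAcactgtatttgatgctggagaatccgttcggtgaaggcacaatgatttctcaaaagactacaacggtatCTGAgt
snoR69b: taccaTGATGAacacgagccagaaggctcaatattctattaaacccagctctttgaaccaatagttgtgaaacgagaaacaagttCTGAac
sno20: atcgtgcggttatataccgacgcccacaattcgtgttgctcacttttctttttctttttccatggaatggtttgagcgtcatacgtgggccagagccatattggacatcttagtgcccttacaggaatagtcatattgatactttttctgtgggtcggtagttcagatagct
U1 lies on the plus strand of chromosome II (snu1, chrII:3020205-3020353), U2 on the minus strand of chromosome I (snu2, chrI:959370-959556) and U5 on the plus strand of chromosome II (snu5, chrII:3236867-3236986). U6 lies on the minus strand of chromosome I, where the table runs from 2562276 to 2562427, which is 8 nt longer at the 5′ side than the 144 nt of RefSeq. The gene of snr79 lies on the plus strand of chromosome I (chrI:2705950-2706037), and so does that of snoR69b (chrI:4154912-4155002). The gene of sno20, which RefSeq calls box H/ACA snoRNA 20/snR35, is on the plus strand of chromosome II (chrII:2411190-2411361). Positions are those of the table, whose build per the labels is ASM294v2, and 58 of the 62 members had the same start, stop and strand in ASM294v3.

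The table gives tag densities, that is reads per nt, from which the reads of each feature were recovered exactly as described in the processing section. The total over features was 13555082 reads in WT and 13678760 in exo2Δ. The coding exons of exo2 counted 251 reads in WT against 26 in exo2Δ, which is the direction that the labels give. The 62 sn(o)RNAs took 11320 reads in WT, or 0.0835% of feature reads (Wilson 95% interval 0.0820% to 0.0851%), and 13434 reads in exo2Δ, or 0.0982% (0.0966% to 0.0999%). These small shares depend on the reads of tRNA genes in the same libraries, and without tRNA genes they were 0.463% and 0.639%. Intervals cover counting error only. They treat reads as independent, and because PCR copies of 1 molecule cannot be recognised here, they may be too narrow.

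Reads were concentrated in few RNAs. In each library 5 members held at least 50% of all sn(o)RNA reads and 23 members held at least 90%. The 3 highest members held 37.9% in WT (37.0% to 38.8%) and 44.1% in exo2Δ (43.3% to 45.0%), and the 10 highest held 68.9% and 70.6%. The first 2 places went to snr79 and U6 in both libraries, whereas the third place went to snoR69b in WT and to U2 in exo2Δ. The median member had 53.5 reads in WT and 53 in exo2Δ, while the highest had 2020 and 3448 reads and the lowest 0 in both. Per length, 53 members in WT and 54 in exo2Δ were above the median density of mRNAs, which was 0.0485 and 0.0451 tags per nt.

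**Figure D1:**
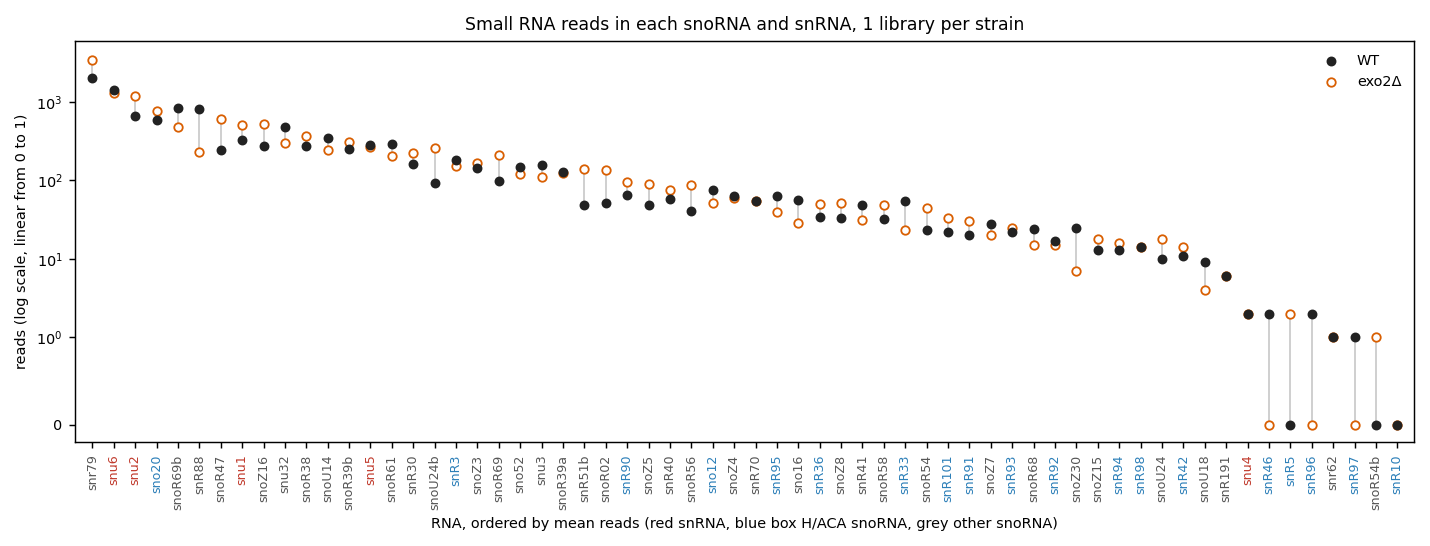
Reads of each of the 62 sn(o)RNAs in WT (filled points) and exo2Δ (open points), 1 library per strain, on a log axis that is linear from 0 to 1 read, with the RNAs ordered by mean reads. Values run from 3448 reads for snr79 in exo2Δ down to 0 reads, and 8 members at the right have 3 reads or fewer in both libraries.

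**Figure D2:**
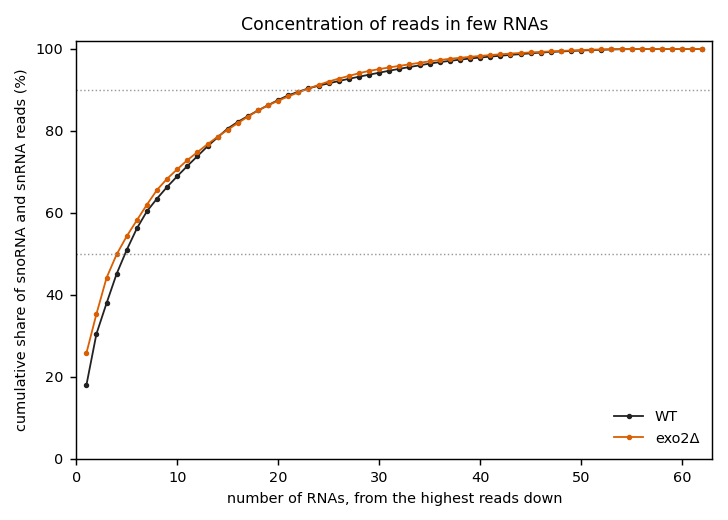
Cumulative share of all sn(o)RNA reads in percent (vertical axis) against the number of RNAs counted from the highest down (horizontal axis), for WT (black) and exo2Δ (orange). Dotted lines mark 50% and 90%, which the curves pass at 5 and 23 RNAs in each library.

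The 5 snRNAs differed widely in reads. Together they held 2695 reads in WT and 3256 in exo2Δ, 23.8% and 24.2% of all sn(o)RNA reads. For U6, the snRNA of the spliceosome's active site, 1426 reads were counted in WT and 1293 in exo2Δ, and its density was 0.905-fold that of WT (exact binomial 95% interval 0.839 to 0.976). U2 had 661 and 1185 reads, a density 1.79-fold higher in exo2Δ (1.63 to 1.97). U1 had 323 and 514 reads, 1.59-fold higher (1.38 to 1.83). U5 had 283 and 262 reads, a ratio of 0.924 whose interval held 1 (0.778 to 1.10). The order from U6 to U2, U1 and U5 was therefore the same in both libraries, with the gap between U6 and U2 narrower in exo2Δ. The direction for U6 and U5 depended on the scaling, because scaling the libraries on the median ratio of mRNAs adds 0.15 to each log2 ratio and turns U6 from -0.14 to 0.01.

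U4 was nearly without reads, with 2 in each library. RefSeq places U4 elsewhere: the table's row spans 467233 to 467361 on the minus strand of chromosome II, and the RefSeq gene spans 467489 to 467615 on the same strand, 127 nt further upstream, with no base in common. The RefSeq U4 is printed here because most reads of the locus were counted in a unit that covers it.
snu4: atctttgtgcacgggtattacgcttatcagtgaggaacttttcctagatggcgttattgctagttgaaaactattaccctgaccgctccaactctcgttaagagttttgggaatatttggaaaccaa
The table also lists a noncoding transcription unit there (novelncTU_372), which covers 123 of the 127 nt of the RefSeq U4. The study took such units from an earlier annotation. This unit took 331 WT reads and 218 exo2Δ reads, of which 329 and 216 lay outside the row called U4, a density 1.53-fold lower in exo2Δ (1.28 to 1.82). Values for the row named U4 are thus values of a stretch downstream of the RefSeq gene.

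The other snRNA loci also carried such a unit on the same strand, except U1 and U6. At U2 the unit novelncTU_268 starts 11 nt before U2 and runs 446 nt past its 3′ end. Outside U2 it took 4334 WT reads and 1224 exo2Δ reads, a density of 9.48 and 2.67 tags per nt, 3.55-fold lower in exo2Δ (3.33 to 3.78). U2 itself had the opposite direction, and its density of 3.53 tags per nt in WT was below that of the flanking stretch, while the 6.32 tags per nt in exo2Δ were above it. At U5 the unit novelncTU_182 runs 454 nt past the 3′ end, and there it took 362 WT reads and 144 exo2Δ reads, 2.52-fold lower (2.07 to 3.08), if all reads of U5 fell in the 115 nt that U5 shares with the unit. The table holds 1 value per feature, so where within these stretches the reads lay is not known.

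**Figure D3:**
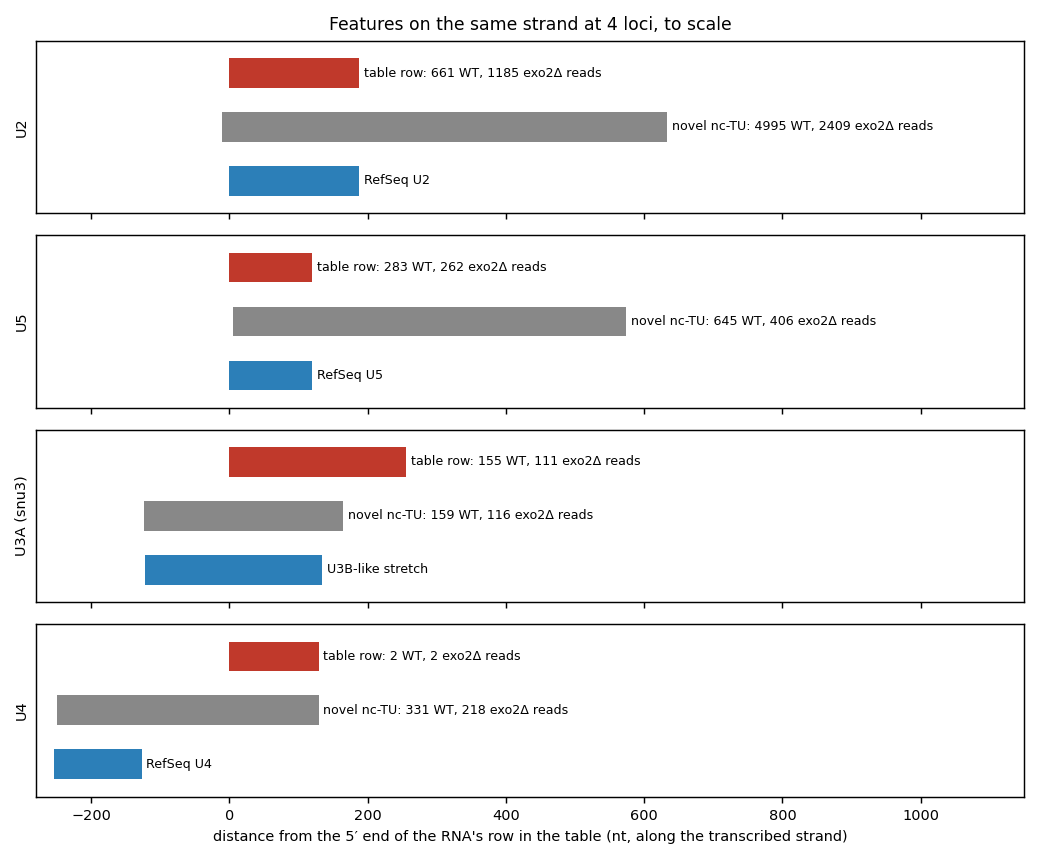
Features on the transcribed strand at U2, U5, U3A and U4, drawn to scale against the distance in nt from the 5′ end of the RNA's row in the table. The row is in red, the noncoding transcription unit (nc-TU) in grey and the RefSeq gene or the U3B-like stretch in blue. The rows of U2 and U5 coincide with RefSeq and their units run 446 and 454 nt further downstream, whereas the row of U4 has no base in common with RefSeq and holds 2 reads in each library.

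Of the 57 snoRNAs, 19 are called box H/ACA in RefSeq and 38 are not given that class, a group that holds the box C/D snoRNAs and U3 but also U17, an H/ACA RNA in budding yeast. The 19 H/ACA snoRNAs are 142 to 273 nt long and had a median density of 0.118 tags per nt in WT and 0.121 in exo2Δ. The other 38 are 47 to 653 nt long and had median densities of 0.571 and 0.801 tags per nt. The lower level of the H/ACA group per length was thus seen in both libraries, and its share of all sn(o)RNA reads was 10.5% in WT and 9.90% in exo2Δ. The group includes snR46, snR10, snR5 and snR96, each with at most 2 reads per library. The strand of these rows is in doubt, as described below, and the medians without them were not computed. A single RNA, sno20, held 592 of the 1192 reads of the group in WT (49.7%) and 769 of 1330 in exo2Δ (57.8%). The 38 other snoRNAs held 7433 reads in WT and 8848 in exo2Δ, 65.7% and 65.9% of all sn(o)RNA reads.

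The letters of the guide boxes were searched on the transcribed strand of the RefSeq sequence of each member. For 58 of the 62 members its position and strand were those of the table row. The C box core TGATGA was found in the first 15 nt of 17 of the 38 other snoRNAs and of 0 of the 19 H/ACA snoRNAs, against 0.500% of all windows of that length in the genome. The D box CTGA was found in the last 12 nt of 29 of the 38 and of 1 of the 19, snR92, against 2.97% of windows, and 16 of the 38 had both. The triplet ACA was found in the last 6 nt of 11 of the 19 H/ACA snoRNAs and of 3 of the 38, against 6.59% of windows. Of these 11, snR46 and snR90 matched at RefSeq ends that are not the 3′ ends of their rows. TGATGA and CTGA were thus more frequent among the 38 and ACA among the 19, although most of the 38 had no TGATGA in the searched window. A member without a match only lacks these exact letters in these windows. The 29 snoRNAs with CTGA had median densities of 0.695 tags per nt in WT and 1.17 in exo2Δ, and the 9 without it 0.450 and 0.382.

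Members were then compared between the libraries. The 52 members with a mean of at least 10 reads over both libraries had a median log2 ratio of exo2Δ over WT of 0.29, on densities as deposited with 1 read added, and their middle 50% lay between -0.47 and 0.62. The median over all 5945 features past the same filter was -0.13 (-0.49 to 0.24 for the middle 50%) and over mRNAs -0.15. Of the 52, 29 were above 0 and 23 below. Beyond a ratio of 2, 6 members (11.5%) were higher in exo2Δ, where 3.97% of all features were, and 3 (5.77%) were lower, where 6.91% of all features were. The binomial interval of the ratio lay above 1 for 17 members, below 1 for 12 and held 1 for 23, which speaks of counting error in these libraries and not of the strains. The same shares over all features were not computed, so these counts show nothing particular to the members. The split of 6 higher and 3 lower became 10 and 3 when the libraries were scaled on the total without tRNA genes, a shift of 0.22 on the log2 scale, with 393 features (6.61%) higher and 247 (4.15%) lower.

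**Figure D4:**
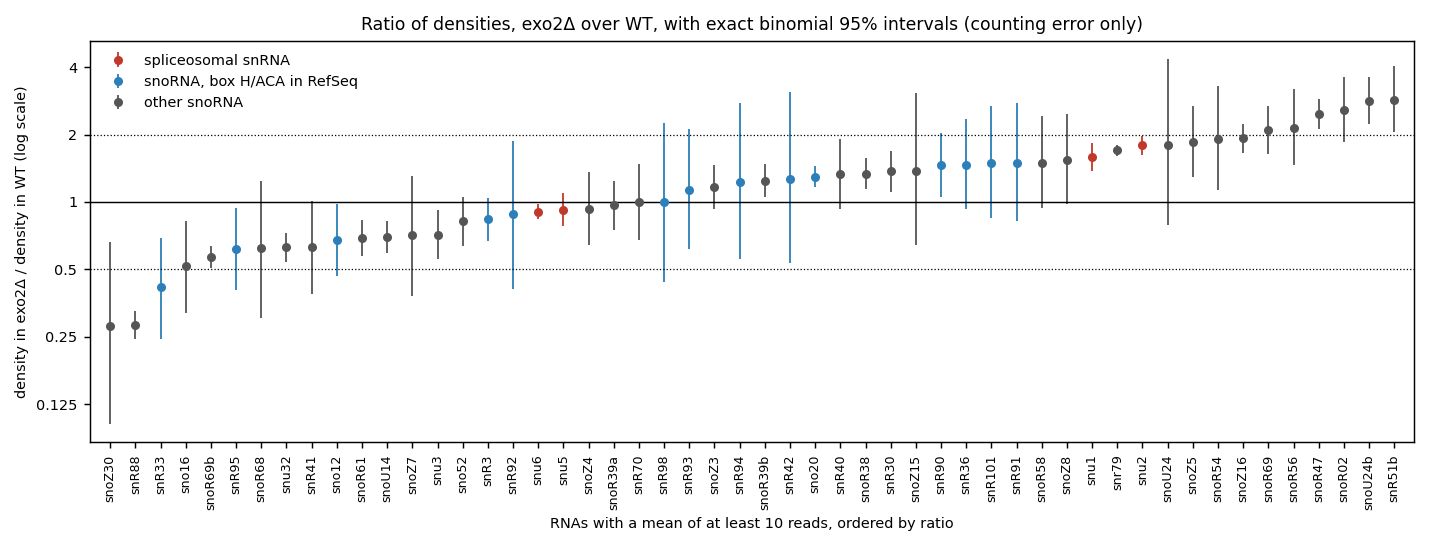
Ratio of densities of exo2Δ over WT for the 52 sn(o)RNAs with a mean of at least 10 reads (log axis), with exact binomial 95% intervals that cover counting error only and colours for the annotated class. Dotted lines mark a ratio of 2 in each direction, which 6 members exceed upwards, the highest being snR51b with 2.87, and 3 downwards.

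All 6 members beyond 2-fold in the upward direction were of the 38 other snoRNAs, of 82 to 84 nt, and 5 of them had CTGA near the 3′ end. These traits were common among the members compared. Of the 52 past the filter, 34 were other snoRNAs and 27 of these 34 had CTGA, and the median length of the 38 was 85.5 nt. The members with the largest ratios are shown as sequences, with TGATGA and CTGA in capitals where they fell in the searched windows, followed by the 2 lowest members with a mean of at least 10 reads that are not inside another transcript.
snR51b: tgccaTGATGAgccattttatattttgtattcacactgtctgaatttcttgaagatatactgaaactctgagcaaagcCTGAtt
snoU24b: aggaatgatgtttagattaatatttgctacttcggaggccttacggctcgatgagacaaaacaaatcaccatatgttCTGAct
snoR02: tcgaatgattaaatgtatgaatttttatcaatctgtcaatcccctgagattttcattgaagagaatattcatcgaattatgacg
snoR47: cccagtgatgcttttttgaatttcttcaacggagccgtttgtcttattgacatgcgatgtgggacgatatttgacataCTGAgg
snR88: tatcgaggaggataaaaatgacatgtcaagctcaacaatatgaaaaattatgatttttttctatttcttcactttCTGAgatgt
snR33: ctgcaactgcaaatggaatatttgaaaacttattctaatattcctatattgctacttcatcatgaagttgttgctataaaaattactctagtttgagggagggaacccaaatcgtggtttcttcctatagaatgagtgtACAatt
These lie on the plus strand of chromosome I for snR51b (chrI:1200646-1200729), snoU24b (chrI:2440336-2440418) and snR88 (chrI:1316808-1316891), on its minus strand for snoR02 (chrI:2627988-2628071), and on the minus strand of chromosome II for snoR47 (chrII:3654333-3654416) and the H/ACA snoRNA snR33 (chrII:2447904-2448048), where the capitals mark ACA. No 20-mer of these 6 RNAs occurred at another place in the genome.

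The largest ratio was that of snR51b, with 48 WT reads and 138 exo2Δ reads, 2.87-fold (2.05 to 4.07). It was followed by snoU24b, which bears the name of a methylation guide of the large subunit rRNA in other eukaryotes, with 92 and 261 reads, 2.83-fold (2.22 to 3.63). The third was snoR02, with 52 and 134 reads, 2.57-fold (1.85 to 3.61). These RNAs had low to moderate reads in WT, and the only 1 of the 6 among the 10 highest members was snoR47, with 242 and 597 reads, 2.46-fold (2.12 to 2.87). The 2 remaining members were snoR56, with 41 and 88 reads, 2.14-fold (1.46 to 3.18), and snoR69, with 99 and 208 reads, 2.10-fold (1.64 to 2.69).

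In the other direction, snR88 had the largest change in reads of any member past the filter except snr79. It held 813 reads in WT, where it was the second highest member per length with 9.68 tags per nt, and 230 reads in exo2Δ, where it was the 12th with 2.73 tags per nt, 3.54-fold lower (3.06 to 4.12). The H/ACA snoRNA snR33 had 55 and 23 reads, 2.40-fold lower (1.45 to 4.09). The third was snoZ30, also called mgU6-47 in RefSeq, with 25 and 7 reads, 3.58-fold lower (1.50 to 9.80). Only snR88 of these 3 had a mean of at least 50 reads.

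Below the 2-fold mark, the highest member of all, snr79, had 2020 WT reads and 3448 exo2Δ reads, a density of 23.0 and 39.1 tags per nt, 1.70-fold higher (1.61 to 1.80). It bears the name of a budding yeast RNA that guides methylation of the small subunit rRNA. Because of its size it decided most of the sum: over all 62 members the summed density ratio was 1.18 (1.15 to 1.21), and without snr79 it was 1.07 (1.04 to 1.10). The snoRNA snoZ16, with both TGATGA and CTGA near its ends, had 271 and 522 reads, 1.92-fold higher (1.66 to 2.23). The H/ACA snoRNA sno20, named with snR35, which guides pseudouridylation of the small subunit rRNA in budding yeast, had 592 and 769 reads, 1.30-fold higher (1.16 to 1.45). Among those lower in exo2Δ, snoR69b had 846 and 483 reads, 1.76-fold lower (1.57 to 1.97). The H/ACA snoRNAs snR95 (63 and 39 reads) and sno12 (75 and 51 reads) were 1.62-fold (1.07 to 2.48) and 1.47-fold (1.02 to 2.15) lower, so that the 5 lowest ratios among members with a mean of at least 50 reads were those of snR88, snoR69b, snR95, snu32 and sno12. The 43 members that did not pass 2-fold lay between ratios of 0.517 and 1.92.

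The snoRNAs needed for cleavage of the ribosomal RNA precursor did not share a direction. U3, the best known of them, has a pair of genes, and both were lower in exo2Δ. U3B (snu32, chrII:3958832-3959086, minus strand) had 476 and 299 reads, 1.60-fold lower (1.38 to 1.85), and U3A (snu3, chrI:987570-987825, minus strand) had 155 and 111 reads, 1.40-fold lower (1.09 to 1.80). U14 (snoU14) had 350 and 244 reads, 1.44-fold lower (1.22 to 1.70). By contrast U17 (snR30) had 161 WT reads and 221 exo2Δ reads, 1.37-fold higher (1.11 to 1.69).

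The row of U3A needs care. A stretch with 91.4% identity to U3B over 256 positions lies at 987692 to 987947 on the minus strand of chromosome I, its first 90 nt the same as in U3B, and the row of U3A covers only 134 nt of it. The row lacks the first 122 nt of that stretch and extends 122 nt past its end. Of the 20-mers of U3B, 61.9% occurred at a single place in the genome, and of those of the U3A row 91.6%, so reads that lie wholly in the stretches shared by the pair of genes have more than 1 place. For 59 of the 62 members all 20-mers were found at a single place, the third exception being snoR61 with 98.7%. The unit novelncTU_269, which covers nearly the same bases as the U3B-like stretch, took 159 WT reads and 116 exo2Δ reads, only 4 and 5 more than the row.

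Members with similar names were not alike in reads. The snoRNA snoR69b had 846 and 483 reads and snoR69 99 and 208, so that the ratio of snoR69b to snoR69 went from 8.55 in WT to 2.32 in exo2Δ. Their longest shared run of bases was 13 nt. Of the pair snoU24b and snoU24, the first had 92 and 261 reads and the second 10 and 18. Of the pair snoR39b and snoR39a, which also share at most 13 nt, the first had 249 and 310 reads, 1.24-fold (1.05 to 1.47), and the second 129 and 125, a ratio of 0.967 (0.750 to 1.25). No 20-mer of these RNAs occurred elsewhere in the genome, but whether shorter reads or reads with mismatches were placed on the right member of a pair was not tested.

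Another feature lay on the same strand for 24 of the 62 members, and reads there can be counted for both. Of these 24, 11 lay in mRNA genes, 9 in annotated noncoding RNAs and 5 in noncoding transcription units, with snR97 in both of the latter kinds. All 11 in mRNA genes were inside introns of the RefSeq gene, 6 of them between coding exons and 5 outside the coding part. The mRNA genes named here were chosen by their position and not by their values. Another feature lay on the opposite strand for 12 members. Counting kept the strands apart, as seen at snr79: the gene gpi12 covers it on the other strand and held only 19 and 9 reads, and SPBC1921.04c, opposite to sno20, held 0 in both.

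Taken as a sum, the intronic snoRNAs and the rest of their host genes did not move together. Summed over the 11, the snoRNAs took 1078 WT reads and 1797 exo2Δ reads, a density ratio of 1.66, whereas the rest of the host genes, exons and introns outside the snoRNA, held 13424 and 9644 reads, a ratio of 0.717. Single pairs weigh much in these sums. The snoRNA snoR47 alone had 242 and 597 reads, although its host was higher in exo2Δ too. The host cpc2 alone had 5217 and 3069 reads outside its snoRNA. The ratio of the snoRNA was above that of the rest of its host in 9 of 11 pairs, and in 8 of the 9 pairs whose snoRNA had a mean of at least 10 reads. The intervals of snoRNA and host overlapped for snoR47, snoU24, snoZ15, snR191 and snoU18. The sn(o)RNAs past the filter also had a higher median log2 ratio (0.29) than mRNAs (-0.15), whether or not they lay in a host. The widest gap was in cpc2, which encodes the ribosomal protein RACK1. Its intronic snoU24b had 92 and 261 reads, and the gene outside it 5217 and 3069 reads, 1.70-fold lower in exo2Δ (1.63 to 1.78). The gene SPAC29A4.02c, which encodes the gamma subunit of translation elongation factor EF-1, had 2144 and 1367 reads outside snoR38, 1.57-fold lower (1.47 to 1.68), and snoR38 had 273 and 366 reads, 1.34-fold higher (1.14 to 1.57). The ribosomal protein gene rpl701 had 2169 and 1491 reads outside snoR39b, 1.46-fold lower (1.36 to 1.56), while snoR39b was 1.24-fold higher.

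The remaining hosts with a well covered snoRNA had the other patterns. In fta3, which encodes a kinetochore protein, both were higher in exo2Δ, with 128 and 243 reads outside snoR47, 1.89-fold (1.52 to 2.37). Here the snoRNA held more reads than the rest of the gene in both libraries, with 242 and 597. In rlp7, which encodes a ribosome biogenesis protein, the order was turned around: the gene outside snoR39a had 255 and 464 reads, 1.82-fold higher (1.56 to 2.12), and snoR39a had 129 and 125. The other 6 snoRNAs in introns had at most 32 reads in WT and 48 in exo2Δ.

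**Figure D5:**
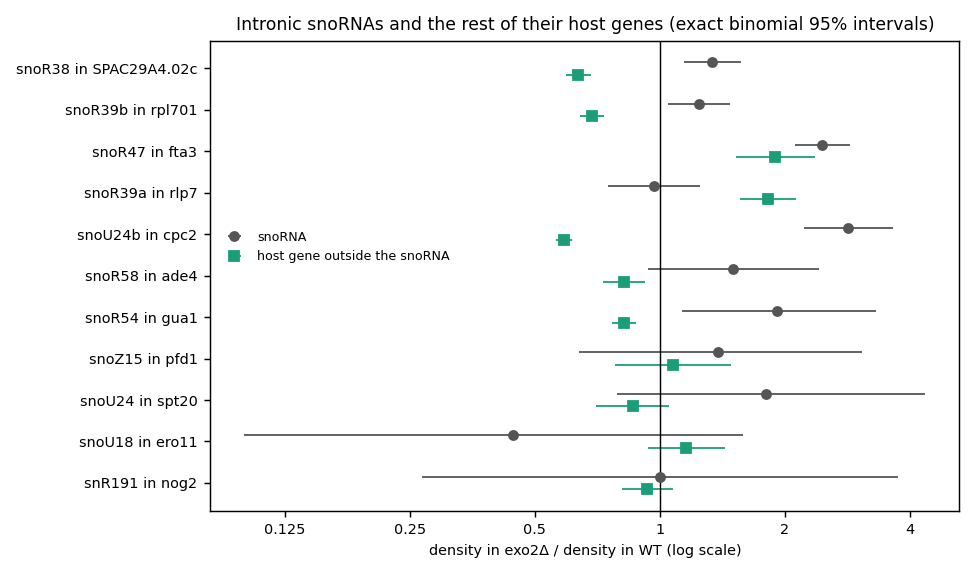
Ratio of densities of exo2Δ over WT on a log axis for the 11 intronic snoRNAs (grey circles) and for the rest of their host genes (green squares), with exact binomial 95% intervals that cover counting error only, ordered by the reads of the snoRNA in WT. The snoRNA lies to the right of its host in 9 of 11 pairs, and snoR39a in rlp7 and snoU18 in ero11 are the exceptions.

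Single ratios of neighbouring snoRNAs varied, and their counting intervals did not always overlap. The RNAs snoZ8, snoZ7, snoZ5, snoZ4 and snoZ3 lie within 988 nt on the plus strand of chromosome I, inside the annotated noncoding RNA SPNCRNA.659. Together they had 316 and 387 reads, 1.22-fold (1.05 to 1.42), with single ratios between 0.713 for snoZ7 and 1.85 for snoZ5. The intervals of snoZ7 (0.381 to 1.31) and snoZ5 (1.29 to 2.69) overlapped only at their ends. Whether these ratios differ beyond counting error was not tested. The rest of SPNCRNA.659 had 90 and 67 reads, so that most reads of this unit fell on the snoRNAs, and within it snoZ3 alone had 144 and 168. The RNAs snR41, snR70 and snR51b lie within 562 nt on the same chromosome and had 49 and 31, 55 and 55, and 48 and 138 reads. These 3 were thus nearly level in WT and spread apart in exo2Δ, with snR51b the highest. The interval of the ratio of snR51b (2.05 to 4.07) lay above those of snR41 (0.389 to 1.01) and snR70 (0.674 to 1.48). The other annotated noncoding RNAs that hold a member went both ways outside it. In SPNCRNA.1483, snoZ30 had 25 and 7 reads and the rest 65 and 12, and in SPNCRNA.1597, sno16 had 56 and 29 reads and the rest 114 and 53. In SPNCRNA.1650, snoR68 had 24 and 15 reads and the rest 6 and 3. By contrast the rest of SPNCRNA.617 had 28 and 51 reads around snR97, 1.82-fold higher in exo2Δ (1.12 to 2.99), and snR97 itself had 1 read and 0. The shorter unit novelncTU_6, which lies inside SPNCRNA.617 and overlaps snR97, went the other way, with 14 WT reads and 0 exo2Δ reads.

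Of the 8 members with 3 reads or fewer in both libraries, U4 was described above, and 5 are H/ACA snoRNAs. snR46 had 2 and 0 reads on the plus strand of chromosome III, but RefSeq places it on the minus strand at the same positions, where novelncTU_468 had 47 and 42 reads. snR10, whose budding yeast namesake is a pseudouridylation guide that also takes part in rRNA processing, had 0 reads in both, snR5 had 0 and 2, and snR96 had 2 and 0. At each of these 3 rows the triplet ACA lay in the last 6 nt of the opposite strand and not of the annotated strand. Of the 19 H/ACA snoRNAs, 4 had ACA there on the strand opposite to that of RefSeq, the other being snR36, which had it on both. The last 24 nt of these strands are shown with ACA in capitals, together with the 3′ end of snR46 on the strand that RefSeq gives.
snR10, opposite strand: atctcaataattgtcactACAtga
snR5, opposite strand: ttcggttcgcttgtggtgtACAtt
snR96, opposite strand: ataacacaagggatcgaaACAttt
snR46, RefSeq strand: acatttttagaaagttgcACAttt
These ends lie on the minus strand at chrIII:992436-992459, chrII:2266028-2266051, chrI:1451227-1451250 and chrIII:1717920-1717943. The triplet occurs in 6.59% of such windows. The table lists no feature opposite snR10 and snR5, and the gene tim17, which lies opposite snR96, had 197 and 228 reads. The others at this level were snR97 (1 read and 0), snr62 (1 and 1) and snoR54b (0 and 1), which XUT0712 covers on the opposite strand with 11 and 14 reads. At this depth a count of 0 allows up to 3 reads, so none of these RNAs can be called absent or different between the libraries.

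The genes for the proteins that bind, mature and degrade these RNAs were looked at as mRNA features from a list of 33 genes in 6 groups. All 33 passed the filter on reads. Their median log2 ratio was -0.34, with 8 above 0 and 25 below, beside the median of -0.15 over all mRNAs past the filter. By that median most mRNAs also lay below 0, and their share was not computed. Beyond 2-fold, 0 were higher, where 3.97% of all features were, and 1 was lower, where 6.91% were. Scaled on the median ratio of mRNAs, an alternative added here after the data were seen, the split was 14 above 0 and 19 below, because dis3, lsm2, nhp2, nop58, sme1 and snu13 turned above 0. The gene beyond 2-fold was mtr4, which encodes the helicase that feeds RNA to the nuclear exosome, with 520 WT reads and 256 exo2Δ reads, 2.04-fold lower (1.75 to 2.37), and under that scaling it was no longer beyond 2-fold. All 4 genes of the box C/D core proteins were below 0 as deposited and 2 under that scaling, where nop58 (927 and 839 reads) and snu13 (1848 and 1674 reads) turned. The other 2 were nop56 with 953 and 518 reads, 1.84-fold lower (1.65 to 2.06), and fib1, the methyltransferase fibrillarin, with 915 and 558 reads, 1.64-fold lower (1.48 to 1.83). The 4 genes of U3 and the processome were all below 0 both as deposited and under that scaling, whereas as deposited 2 of the 4 H/ACA protein genes, 3 of the 7 Sm protein genes and 1 of the 7 Lsm genes were above 0. The processing gene pac1, which encodes the RNase III that cuts sn(o)RNA precursors, had 79 and 145 reads, 1.83-fold higher, and passed 2-fold under that scaling.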

How the data were processed

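Small RNA libraries of WT and exo2Δ cells were analysed, 1 per strain. The authors trimmed adapters with cutadapt, mapped reads to a single place with Bowtie on ASM294v2 (names from the submitters' processing notes) and deposited a signal per feature, namely its density of tags over its length in nt. Whether a filter on read length preceded these values was not determined.

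The table has 19343 rows, of which 10204 are coding exons and were left out of totals. Density times length was a whole number of reads in WT and a whole multiple of 0.998 in exo2Δ, taken as the authors' scaling factor. Log2 ratios used deposited densities with 1 read added, where both libraries averaged at least 10 reads. The added read shrinks the ratios of weakly covered features. Ratios of single features carry exact binomial 95% intervals and shares Wilson 95% intervals. Sequences, symbols and introns came from RefSeq ASM294v3, and the letters of boxes were searched in the first 15, last 12 and last 6 nt. A stretch was called unique if its 20-mers occurred once on either strand. The tools were Python 3.11.15, pandas 2.3.3, numpy 2.4.6, scipy 1.17.1 and matplotlib 3.10.9, and the steps were tested on simulated data.

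The members and lists were chosen with earlier results of these data known. Named were the snRNAs, the 10 members with the highest mean reads, the 5 with the largest ratio each way with a mean of at least 50 reads, those with 3 reads or fewer in both libraries, and those sharing their strand with a mean of at least 50 reads. Members named beyond this rule (snoR69, snR33, snoZ30, sno16, snoR61, U14, U17, snR41, snR70, the snoZ RNAs and intronic snoRNAs with fewer reads) were chosen after their values were seen. Alternatives changed the scaling, the pseudocount (0.1 or 5 reads), the filter, the denominator, the members summed and the overlap.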

Additional observations from a re-analysis of the deposited data

How the results depend on the processing

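With 1 library per strain, no replicate error exists for any value, and differences between strains cannot be told apart from differences between cultures or libraries. No paired analysis was possible because there was a single library for WT and for exo2Δ. The share of feature reads in sn(o)RNAs was 0.403% in WT and 0.469% in exo2Δ without the 10 highest features, and 0.463% and 0.639% without tRNA genes. The 3 highest members held 41.8% in WT by summed density, and 42.7% in WT and 47.3% in exo2Δ among snoRNAs alone. The log2 ratio of summed reads, 0.24 as deposited, was 0.40 with libraries scaled by the mRNA median, 0.47 when scaled without tRNA genes, 0.0996 without snr79 and 0.14 without members that share their strand. The number beyond 2-fold upwards, 6, became 10 when scaled without tRNA genes, where 6.61% of all features were higher. The number downwards, 3, became 6 without the filter and 1 above a mean of 50 reads. Those added without the filter had few reads in WT and exo2Δ: snoU18 (9 and 4), snR46 (2 and 0) and snR96 (2 and 0). Shares of all features under these changed filters were not computed. Only 11 of the 24 members that share their strand do so with an mRNA. The median log2 ratio of 0.29 lay between 0.087 (no filter) and 0.51 (scaled without tRNA genes). Of 120 alternative values for the 24 named members with more than 3 reads, 12 moved beyond the counting interval, all of them under a change of scaling.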

Other observations

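RefSeq lists 2 further snoRNAs that the table holds as noncoding RNA genes and that were therefore not among the 62. snR48 (SPNCRNA.497) had 20 reads in WT and 29 in exo2Δ, and SPNCRNA.498 had 4 and 3 reads. In RefSeq snR90 is 488 nt long, 263 nt more than the 225 nt of its row, in which 65 and 95 reads were counted.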
